A study of Mus musculus with 4 samples.

Results

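The genes described here belong to 6 mouse families that have tandem copies and include known markers of the embryo at the 2-cell stage. They were taken by symbol, as every gene of the count tables whose symbol starts with Zscan4, Pramel, Pramef, Tdpoz, Usp17l or Tcstv, which gave 31 of 25239 genes. The set held 5 Zscan4, 6 Pramel, 6 Pramef, 7 Tdpoz, 5 Usp17l and 2 Tcstv genes. A symbol alone does not make a gene a 2-cell marker or a near-identical copy. The libraries were made from polyadenylated RNA of mouse embryonic stem cells that carry Ogt fl/fl, a form of the Ogt gene that Cre can delete, in all 4 libraries. In 2 libraries (Ogt iKO) the cells had been kept with 4-OHT, the ligand that switches on a tamoxifen-dependent Cre, for 6 days, and in the other 2 (control) without it. Cells were grown on fibroblast feeders and sorted to remove them, and a YFP+ gate was described for the treated cells only, so that 4-OHT, the gate and the loss of Ogt cannot be told apart. No 4-OHT-treated cells with an intact Ogt gene are among these libraries, and the labels do not say whether replicates were separate cultures, so that p-values measure the spread between these libraries, which may be technical.

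Ogt encodes the enzyme that attaches O-GlcNAc, a single sugar, to serine and threonine residues of nuclear and cytoplasmic proteins. A small, changing fraction of cells in embryonic stem cell cultures passes through a 2-cell-like state, in which genes of the newly activated embryonic genome are transcribed and the transcription factor DUX is a known driver. Zscan4 genes encode DNA-binding proteins with zinc fingers and a SCAN domain, known for their part in telomere maintenance in stem cells. Pramel and Pramef genes encode leucine-rich repeat proteins of the PRAME family, Tdpoz genes encode proteins with a TRAF-like and a POZ domain, Usp17l genes encode deubiquitinating enzymes, and Tcstv genes are named for their transcription at the 2-cell stage. Because copies of a family share sequence, reads can be assigned to the wrong copy or be dropped, and values of single copies are less certain than family sums.

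The total count ran from 14668489 to 16504204 per library, and 0 counts for a gene allow up to 3, which is 0.175 to 0.195 CPM (counts per 1000000 after TMM scaling of library sizes, the scale used throughout). That limit covers counting error only. Ogt counts were 437 and 389 in Ogt iKO and 2963 and 3108 in control, and fell by 2.96 on the log2 scale (SE 0.07, adjusted p = 2.5e-07, edgeR quasi-likelihood test with Benjamini-Hochberg adjustment over 14525 genes, as for every adjusted p below). Of 10 stem cell markers, 0 were at 0 counts and 9 fell, while 32.0% of all tested genes were lower and 33.2% higher. The median log2 change of the 10 was -0.80, and their summed level was 2383 and 2702 CPM in Ogt iKO against 4417 and 4410 CPM in control. Each of 12 feeder fibroblast markers was detected, at summed levels of 2493 and 566 CPM in Ogt iKO and 969 and 1107 CPM in control, so that the sum was above the controls in 1 Ogt iKO library and below them in the other. Of the 12, 2 were higher, Pdgfrb (3.06-fold) and Twist1 (2.73-fold), in both Ogt iKO libraries, and 0 were lower.

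The start regions of the Zscan4 genes show how alike the copies are, and they are printed because the 5 copies rose together. Promoter entries from RefSeq (GRCm38.p6) were found for Zscan4b, Zscan4c, Zscan4d and Zscan4f. Within the 250 bases before the annotated starts they share a block of 216 bases. The block reaches an edge of that window in Zscan4b, Zscan4d and Zscan4f, so the shared stretch may be longer. The 4 copies had the same base at 204 positions and differed at 12, which are in capitals in the sequences, written 5′ to 3′ on each gene's own strand. The block lies at chr7:10905051-10905266 on the minus strand for Zscan4b, at chr7:11005506-11005721 on the plus strand for Zscan4c, at chr7:11166183-11166398 on the minus strand for Zscan4d and at chr7:11397699-11397914 on the plus strand for Zscan4f.
Zscan4b: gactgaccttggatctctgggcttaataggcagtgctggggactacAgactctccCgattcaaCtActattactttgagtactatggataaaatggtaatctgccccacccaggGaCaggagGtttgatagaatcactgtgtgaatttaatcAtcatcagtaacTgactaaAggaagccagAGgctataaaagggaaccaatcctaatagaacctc
Zscan4c: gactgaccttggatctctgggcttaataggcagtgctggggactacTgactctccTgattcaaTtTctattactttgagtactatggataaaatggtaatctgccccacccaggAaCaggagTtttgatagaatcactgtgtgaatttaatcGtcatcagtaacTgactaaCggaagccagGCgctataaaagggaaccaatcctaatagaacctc
Zscan4d: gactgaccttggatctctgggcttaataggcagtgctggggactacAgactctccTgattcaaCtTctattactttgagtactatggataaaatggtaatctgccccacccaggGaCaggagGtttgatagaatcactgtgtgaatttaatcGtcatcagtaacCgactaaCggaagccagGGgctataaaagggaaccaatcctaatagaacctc
Zscan4f: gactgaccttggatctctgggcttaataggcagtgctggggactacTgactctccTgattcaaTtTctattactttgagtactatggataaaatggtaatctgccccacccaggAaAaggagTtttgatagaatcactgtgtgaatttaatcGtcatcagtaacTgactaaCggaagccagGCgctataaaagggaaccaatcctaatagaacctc
Identity between pairs ran from 94.9% (Zscan4b and Zscan4f) to 99.5% (Zscan4c and Zscan4f, 1 difference). Each copy holds TATAAA, the TATA box, near the end of the block, 31 bases before the annotated start in Zscan4b and Zscan4f, 54 in Zscan4c and 65 in Zscan4d.

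Zscan4 RNA was several-fold higher in the Ogt iKO cells. The 5 genes, between positions 10794241 and 11402318 of chromosome 7, summed to 115 and 125 CPM in Ogt iKO and to 33.1 and 20.8 CPM in control. The groups did not overlap, and the ratio of their means was 4.47-fold, from 3.49 to 6.03 over the 4 pairs of 1 Ogt iKO and 1 control library. In bulk RNA, more cells in the 2-cell-like state and more of this RNA per cell cannot be told apart. All 5 genes passed the filter on low counts through the controls as well, and 5 of 5 were higher, by 3.40 to 5.00-fold. In the whole table, 33.2% of the 14525 tested genes were higher and 32.0% lower at an adjusted p under 0.05.

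Zscan4d, the copy with the highest counts, had 925 and 850 in Ogt iKO and 200 and 140 in control. Both Ogt iKO values lay far above the controls, while the controls differed from each other, and the log2 fold change was 2.30 (SE 0.14, adjusted p = 4.3e-06). Zscan4c had 354 counts in each Ogt iKO library and 83 and 51 in control, and Zscan4b had 240 and 227 against 52 and 37. Their log2 fold changes were 2.32 (SE 0.20) and 2.31 (SE 0.20). Zscan4a, which RefSeq lists as a transcribed pseudogene, had 269 and 305 counts against 102 and 58, a rise of 1.77 on the log2 scale (SE 0.24, adjusted p = 0.00027). Zscan4d held 46.9% and 43.7% of the family's counts in Ogt iKO and 39.1% and 43.9% in control, with overlap between the groups. The share of Zscan4a was 13.6% and 15.7% in Ogt iKO and 19.9% and 18.2% in control, without overlap. Per kilobase of exon, Zscan4d stood at 23.9 CPM in Ogt iKO and at 4.85 CPM in control.

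**Figure D1:**
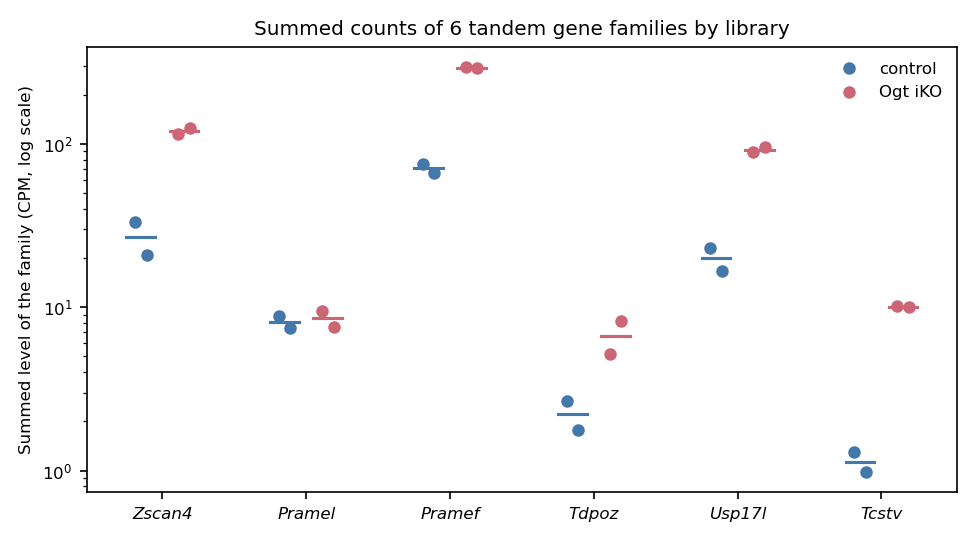
Summed level of each family in each of the 4 libraries, in CPM on a log axis (points), with the mean of each group (bars), control in blue and Ogt iKO in red. In 5 families both Ogt iKO libraries lie above both controls, and in Pramel, at 9.47 and 7.60 CPM against 8.78 and 7.49 CPM, the groups overlap.

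The Usp17l genes behaved alike among themselves. Their 5 members lie on chromosome 7 between 103250086 and 104862667, apart from Zscan4, and summed to 89.5 and 94.96 CPM in Ogt iKO and to 23.1 and 16.7 CPM in control. The groups did not overlap, with a ratio of means of 4.63-fold (3.87 to 5.67 over the pairs). All 5 members were higher, by 3.84 to 5.90-fold, against 33.2% of all tested genes. Of the 4 that passed the filter in control as well, 4 were higher. Usp17le, the copy with the highest counts, had 595 and 541 in Ogt iKO and 126 and 103 in control, a rise of 2.23 on the log2 scale (SE 0.12, adjusted p = 3.0e-06). Usp17la followed with 445 and 465 against 100 and 61, and a log2 fold change of 2.42 (SE 0.20). Usp17lb had 331 and 334 counts against 95 and 69 and rose least of the 5, by 1.94 on the log2 scale (SE 0.17). The largest rise was that of Usp17ld, at 66 and 42 counts against 11 and 6 (log2 fold change 2.56, SE 0.37), with the widest standard error of the 5. Usp17ld passed the filter only through the Ogt iKO libraries. Usp17lc, with 94 and 92 counts against 26 and 18, lay between them at 1.99 (SE 0.25).

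**Figure D2:**
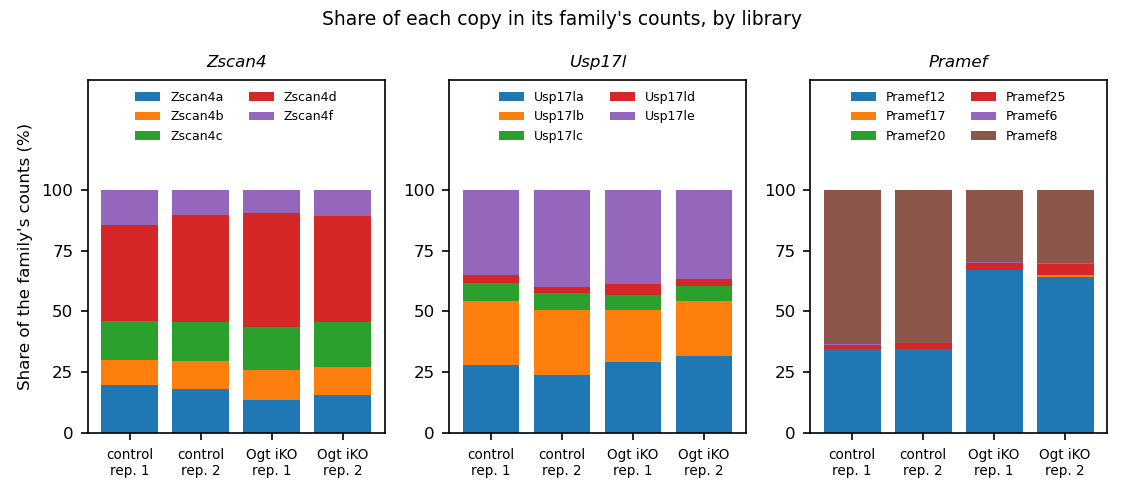
Share of each copy in the counts of its family (percent, stacked bars that sum to 100) in each library, for Zscan4, Usp17l and Pramef. In Zscan4 and Usp17l the copy with the largest share is the same in the 4 libraries, and in Pramef the share of Pramef12 is 66.8% and 64.3% in Ogt iKO and 34.6% and 34.5% in control.

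Pramef had the highest summed counts, and its rise was carried unequally by its members. The 6 genes lie on chromosome 4 between 143412155 and 144408467 and summed to 294 and 291 CPM in Ogt iKO against 74.9 and 66.7 CPM in control, a ratio of 4.13-fold (3.88 to 4.41 over the pairs). Of the 5 tested members 5 were higher, against 33.2% of all tested genes, and 3 of the 3 that passed the filter in control as well. Without Pramef12, however, the log2 ratio of the family sum was 1.12 in place of 2.05. Pramef12, known for its role in spermatogonial stem cells, had 3363 and 2903 counts in Ogt iKO and 401 and 353 in control. Its log2 fold change was 2.97 (SE 0.08, adjusted p = 2.5e-07), with replicates of each group close together. Pramef8 had 1498 and 1349 counts against 736 and 644, a smaller change of 0.96 on the log2 scale (SE 0.08, adjusted p = 2.2e-05). In the controls Pramef8 held 63.4% and 62.9% of the family's counts, and in Ogt iKO 29.8% and 29.9%, so that the order of the copies turned. Per kilobase of exon the gap in control was smaller, with Pramef8 at 10.7 CPM and Pramef12 at 9.50 CPM, and in Ogt iKO Pramef12 stood at 74.5 CPM and Pramef8 at 20.9 CPM.

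The other Pramef genes were scarce in control cells. Pramef25 had 136 and 214 counts in Ogt iKO and 17 and 24 in control, a rise of 3.02 on the log2 scale (SE 0.33, adjusted p = 8.3e-05). Pramef17 had 14 and 25 counts against 2 and 2, a count ratio of 9.21 with a 95% counting interval of 3.32 to 35.5. Pramef6 had 18 and 21 counts against 4 and 1, a count ratio of 7.37 (2.90 to 24.0). Pramef17 and Pramef6 passed the filter only through the Ogt iKO libraries, and the log2 fold change of Pramef6, 2.83, was 2.17 without control replicate 2 and 4.04 without control replicate 1. Pramef20 had 2 counts in 1 Ogt iKO library and 0 elsewhere, which is under the limit for a comparison.

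The genes that the tables name Pramel did not move as a family. The 6 members, on chromosomes 2, 4 and X, summed to 9.47 and 7.60 CPM in Ogt iKO and to 8.78 and 7.49 CPM in control, and the ratio of 1.05-fold (0.866 to 1.26 over the pairs) was smaller than the spread between replicates. It turned to -0.10 on the log2 scale without Ogt iKO replicate 1 and to -0.04 without control replicate 2. Pramel1 gave most of the counts, 139 and 98 in Ogt iKO and 109 and 94 in control, with a log2 difference of 0.14 (SE 0.19, adjusted p = 0.56). Pramel6 had 9 and 10 counts against 13 and 12, a log2 difference of -0.47 (SE 0.39, adjusted p = 0.33). Pramel7, which lies beside Pramel6 and is known for a role in the ground state of pluripotency, had 8 and 4 counts against 11 and 7 and did not pass the filter. Pramel5 had 3 and 6 counts against 2 and 2, Pramel3 had at most 3 counts in a library, and Pramel4 had 0 in all 4.

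The name Pramel covers more genes in RefSeq than in the count tables. RefSeq gives Pramef12, Pramef8, Pramef25, Pramef17, Pramef6 and Pramef20 the names Pramel13, Pramel12, Pramel16, Pramel14, Pramel11 and Pramel15. Another 20 genes that RefSeq names Pramel, and Gm9125, which it names Tdpoz9, stood in the tables under other symbols. Of these 21, 10 had 0 counts in every library and 5 were tested, of which 5 were higher, against 33.2% of all tested genes: Gm13078 (Pramel24), Gm13119 (Pramel31), Gm12794 (Pramel19), B020004J07Rik (Pramel17) and Gm13083 (Pramel21). They were named because there were only 5, after their values were seen, and 2 of them passed the filter only through the Ogt iKO libraries, which leaves 3 of 3 higher among those that passed in control as well. Gm13078 had 225 and 369 counts in Ogt iKO and 47 and 48 in control (log2 fold change 2.58, SE 0.29). The 21 genes summed to 47.6 and 65.5 CPM in Ogt iKO against 11.2 and 9.71 CPM in control. With the 20 Pramel genes among them, the log2 ratio of the Pramel sum was 1.80 in place of 0.07. Pramel and Pramef taken as 1 family of 12 genes summed to 304 and 298 CPM against 83.7 and 74.2 CPM, a ratio of 3.81-fold.

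The upstream sequences of Pramef12, which rose, and Pramel1, which was not called, are printed to show a feature in which they differ, the number of CpG dinucleotides, the sites of DNA methylation in mammals. Each is the 250 bases before the annotated start (RefSeq, GRCm38.p6), 5′ to 3′ on the gene's strand, with every CpG in capitals, at chr4:144408465-144408714 on the minus strand for Pramef12 and at chr4:143394191-143394440 on the plus strand for Pramel1.
Pramef12: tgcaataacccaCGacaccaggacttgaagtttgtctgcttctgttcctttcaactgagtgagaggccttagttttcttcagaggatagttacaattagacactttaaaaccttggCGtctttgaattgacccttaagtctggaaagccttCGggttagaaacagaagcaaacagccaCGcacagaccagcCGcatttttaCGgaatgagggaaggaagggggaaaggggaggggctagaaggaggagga
Pramel1: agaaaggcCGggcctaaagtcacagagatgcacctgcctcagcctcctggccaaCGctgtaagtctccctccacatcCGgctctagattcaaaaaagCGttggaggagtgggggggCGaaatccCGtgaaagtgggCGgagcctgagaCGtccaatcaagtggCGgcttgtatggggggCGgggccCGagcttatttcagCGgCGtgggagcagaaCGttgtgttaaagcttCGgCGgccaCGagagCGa
Pramef12 holds 6 CpG and Pramel1 holds 18, while Pramel6, which was not called either, holds 2. RefSeq promoters were found for 24 of the 31 members, as 25 entries. None was found for Zscan4a, Usp17le, Pramef8, Tdpoz2, Tdpoz3, Tcstv1 or Tcstv3, so Tcstv is not covered. In 21 of the 25 the 20 bases after the start are found in the member's longest GENCODE transcript, and Zscan4b and Pramel6 are among the others, so the distance of their sequence from the start in use is less certain. Among these 25, 23 (92.0%) hold 5 CpG or fewer, against 49.6% of 32851 mouse promoters of the same length, and the median is 1 against 6. Pramef12 and Pramel1 are the 2 entries above 5. Whether the number of CpG bears on the members' RNA was not tested.

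Motifs were searched on both strands of the same 250 bases. TATAAA was found in 7 of the 24 members, namely Zscan4b, Zscan4c, Zscan4d, Zscan4f, Usp17lb, Usp17lc and Usp17ld, and in 12.4% of all promoters. The pair TGATT and AATCA with 1 base between them, which the 2 homeodomains of DUX bind, was in 0 of 24 members and in 0.0304% of all promoters. TGCACAC, a reported ZSCAN4 site, was in 0 of 24 against 3.67%, and CACGTG, the E-box of MYC and MGA, was in 0 of 24 against 6.02%. No searched motif overlaps another in sequence. The DUX pair was in only 10 of 32851 promoters, so 24 members are too few to show whether they hold it more or less often. For TGCACAC and CACGTG, 24 members are also few. Only exact matches were counted, and binding was not tested. These matches describe this window only.

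Tdpoz RNA was low, and the rise of the family was uneven. The 7 genes lie on chromosome 3 between 93068823 and 94072644 and summed to 5.14 and 8.18 CPM in Ogt iKO against 2.65 and 1.76 CPM in control. The groups did not overlap, and the ratio was 3.02-fold, with a wide range of 1.94 to 4.65 over the pairs. Tdpoz8, the member with the highest counts, had 44 and 66 counts against 29 and 23, a rise of 1.01 on the log2 scale (SE 0.32, adjusted p = 0.021). Its adjusted p was 0.16 without Ogt iKO replicate 2, 0.11 without control replicate 2 and 0.11 with DESeq2. Without Tdpoz8 the log2 ratio of the family was 2.65 in place of 1.60. Tdpoz1 had 23 and 32 counts against 2 and 1, a count ratio of 17.3 with a counting interval of 5.63 to 86.6. Tdpoz3 had 15 and 18 counts against 5 and 3, a rise of 1.93 on the log2 scale (SE 0.47, adjusted p = 0.0064), with an adjusted p of 0.070 without control replicate 2 and 0.12 with DESeq2. Tdpoz1 and Tdpoz3 passed the filter only through the Ogt iKO libraries. Tdpoz4, with 4 and 8 counts against 3 and 0, and Tdpoz2, with 2 and 3 against 2 and 0, were not tested, and Tdpoz5 and Tdpoz7 had 0 counts in every library.

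Tcstv showed the highest ratio of the 6 families at a low level. The 2 genes lie on chromosome 13, between 119893387 and 120318261, and summed to 10.1 and 10.05 CPM in Ogt iKO and to 1.29 and 0.977 CPM in control, a ratio of 8.89-fold (7.78 to 10.3 over the pairs). Tcstv3 had 94 and 88 counts in Ogt iKO and 8 and 5 in control, a rise of 3.70 on the log2 scale (SE 0.30, adjusted p = 1.9e-05). Tcstv1, known for a role in telomere lengthening in stem cells, had 79 and 68 counts against 12 and 10, a rise of 2.64 on the log2 scale (SE 0.27, adjusted p = 6.2e-05). Both groups were tight and far apart, and both genes passed the filter only through the Ogt iKO libraries.

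**Figure D3:**
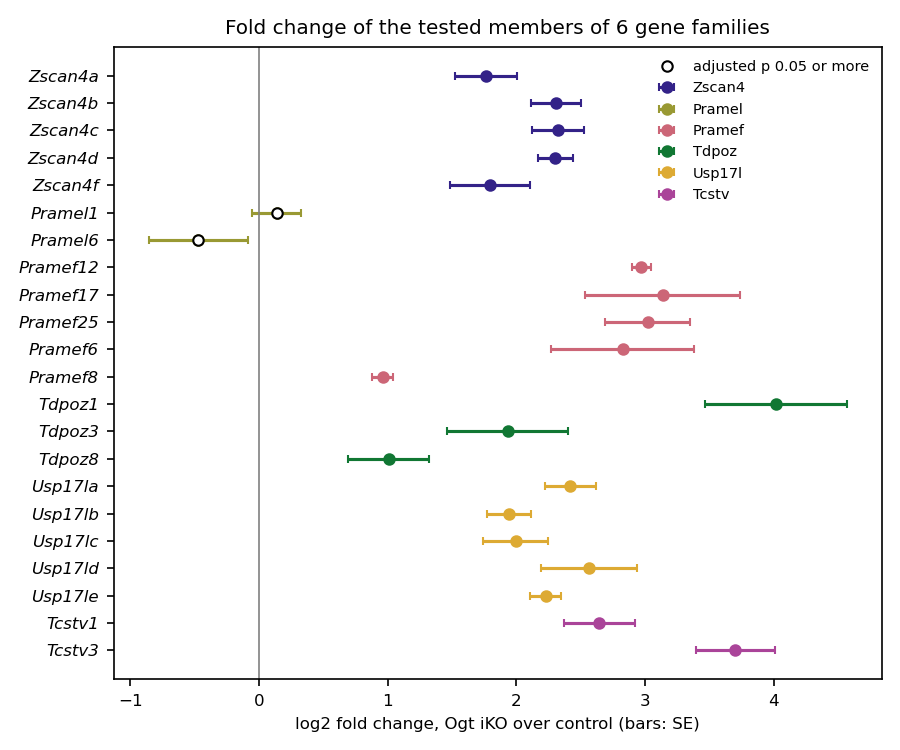
Log2 fold change of Ogt iKO over control for the 22 tested members (points) with the standard error (bars), coloured by family, open circles where the adjusted p was 0.05 or more. The 20 members called higher lie between 0.96 and 4.02, and the open circles are Pramel1 and Pramel6.

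Over the 6 families, 22 of the 31 genes were tested, 20 were higher, 0 were lower and 2, Pramel1 and Pramel6, were not called. Of all tested genes, 33.2% were higher and 32.0% lower. At an unadjusted p under 0.05 and with DESeq2 the count of lower members was 0 as well. Of the 15 tested members that also passed the filter in the controls, 13 were higher, and for the other 7 the filter itself required a difference, so the share of tested members called is no measure of the families. In the 20, both Ogt iKO libraries lay above both controls, which being called higher made likely beforehand. Over all tested genes, called or not, 42.3% did so. A rise of at least 2-fold was called in 19 members and in 14.9% of all tested genes. The 31 genes summed to 524 and 537 CPM in Ogt iKO and to 144 and 114 CPM in control, and Pramef12 and Pramef8 together held 51.0% to 56.7% of these counts in each library. In the Ogt iKO library with the lower feeder marker sum the members summed to 537 CPM, and in the one with the higher sum to 524 CPM. Of the 12 feeder markers 2, Pdgfrb and Twist1, were higher in both libraries and 0 were lower. The part of feeder cells in the members' values was not tested.

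**Figure D4:**
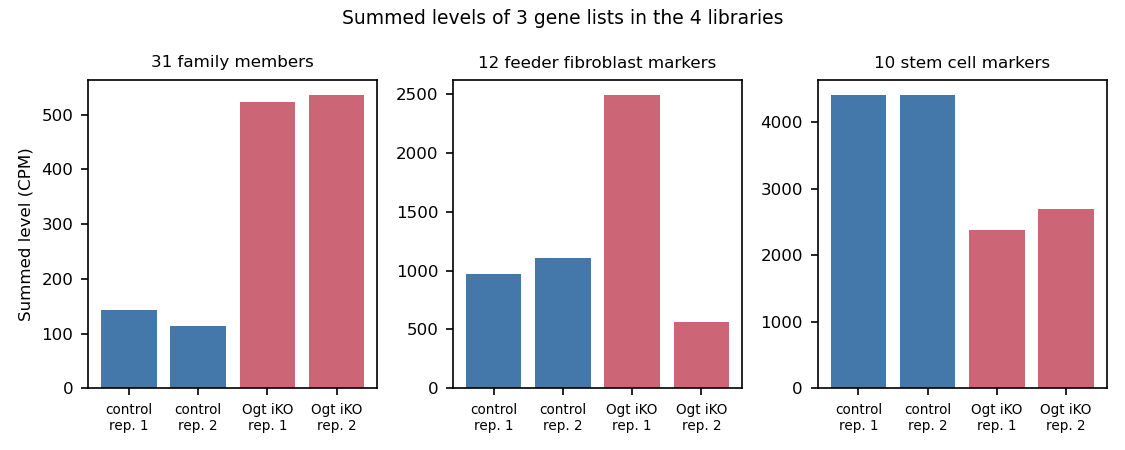
Summed level (CPM, bars from 0) in each library of the 31 family members, the 12 feeder fibroblast markers and the 10 stem cell markers, control in blue and Ogt iKO in red. The members stand at 524 and 537 CPM in Ogt iKO, and the feeder markers at 2493 and 566 CPM.

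How far a copy could be counted on its own was measured on the transcripts of GENCODE vM21, as the share of 50-base windows of a member's longest transcript that no other gene's transcript holds. The median was 14.5% in Zscan4 (4.66% in Zscan4f to 50.4% in Zscan4d), 69.2% in Usp17l (48.9% to 80.4%), 75.9% in Tcstv, 82.4% in Pramef, 86.2% in Pramel and 51.7% in Tdpoz. Zscan4b shares 87.0% of its windows with Zscan4e, and Zscan4c shares 71.4% with Zscan4-ps2, genes that RefSeq lists as pseudogenes. Tdpoz5 and Tdpoz7 have no window of their own, so their 0 counts say little about their RNA. Pramef17 shares 73.5% of its windows with Gm13128. Of the 31 members, 6 have at least 99% of windows to themselves, and 4 of these were tested. Pramef12 and Pramef8 were higher, and Pramel1 and Pramel6 were not called. How the deposited counts treated reads that map to several places was not given in the sources used here, and its part in the members' values was not tested.

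**Figure D5:**
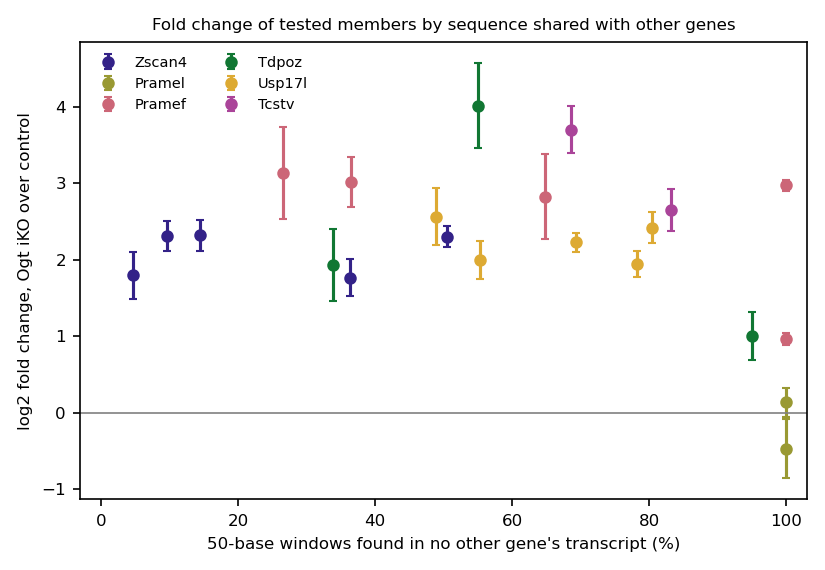
Log2 fold change with standard error (y axis) of the 22 tested members against the share of 50-base transcript windows found in no other gene (x axis, percent), coloured by family. Members called higher are found from 4.66% (Zscan4f) to 100% (Pramef12 and Pramef8), and Pramel1 and Pramel6 stand at 100%.

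Other known genes of the 2-cell-like state were taken from a list of 32 symbols outside the 6 families, of which 29 were in the tables, 4 had 0 counts and 19 were tested. Of these 19, 15 were higher and 1 lower, against 33.2% and 32.0% of all tested genes, but 8 of the 19, of which 7 were higher, passed the filter only through the Ogt iKO libraries. Among the other 11, 8 were higher and 1 lower, and the median log2 fold change was 1.20, against 0.02 over all tested genes. Dux, the driver of the state and itself a tandem-repeat gene, had 19 and 19 counts in Ogt iKO and 2 and 6 in control, a rise of 2.13 on the log2 scale (SE 0.50, adjusted p = 0.0052). It was among the 8, its log2 fold change was 1.55 without control replicate 1 (adjusted p = 0.055) and 3.09 without control replicate 2, and its adjusted p was 0.073 with DESeq2. Gm20767 had 189 and 217 counts against 31 and 15. Its log2 fold change of 3.06 was 3.66 without control replicate 1 and 2.63 without control replicate 2. AF067061 had 51 and 67 counts against 0 and 1, a count ratio of 112 (counting interval 19.6 to 4441), and was also among the 8. Its fitted log2 fold change was 5.64 without control replicate 1 and 8.87 without control replicate 2. Gm20767 and AF067061 lie near the Tcstv genes and share 50-base windows of transcript with them, so their counts are not separate from that family. Tmem92 had 190 and 177 counts against 50 and 37. The gene that fell, Obox6, a homeobox gene expressed in oocytes and early embryos, had 11 and 20 counts against 51 and 97. It was singled out after its values were seen.

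Known activators of the state moved both ways, and known repressors were mostly lower. Of 6 activators, 2 were higher and 4 lower, against 33.2% and 32.0% of all tested genes, so that the share higher was close to the background. Dppa3, a maternal factor that protects DNA methylation, rose by 0.79 on the log2 scale (SE 0.10), and Dppa4, a partner of DPPA2 at the Dux locus, fell by 0.43 (SE 0.07). Trp53, which encodes p53, fell by 0.63 (SE 0.06) and Zfp143 fell by 0.57 (SE 0.08). Of 24 repressors, 16 were lower and 1 was higher, against 32.0% and 33.2% of all tested genes, with a median log2 fold change of -0.27. Chaf1b, which encodes part of the histone chaperone CAF-1, had 838 and 837 counts in Ogt iKO and 3075 and 2955 in control, and fell by 1.93 (SE 0.07, adjusted p = 5.3e-07). Uhrf1, the cofactor of maintenance methylation, fell by 0.90 (SE 0.06), Zmym2 fell by 0.75 (SE 0.06), and E2f6, a subunit of a polycomb complex, rose by 0.91 (SE 0.08). The lists were chosen with results on these libraries known and are no independent evidence of direction.

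Genes of other names near the tandem copies were also counted. Within 500 kb of a member's position, 38 other genes were tested, of which 25 (65.8%) were higher and 3 lower, against 33.2% and 32.0% of all tested genes. Of the 38, 10 passed the filter only through the Ogt iKO libraries, and 9 of these were higher. Among the other 28, 16 (57.1%) were higher and 3 lower. Of the 38, 6, all near Tcstv, share 50-base windows with a member, and 5 of these 6 passed the filter only through Ogt iKO. With both kinds left out, 15 of 27 neighbours (55.6%) were higher and 3 lower, with a median log2 fold change of 0.43. Near Zscan4 the single tested neighbour, Zik1, fell by 1.40 (SE 0.12), with 163 and 133 counts against 367 and 372. Near Tdpoz, Tchh, which encodes trichohyalin, had 509 and 544 counts in Ogt iKO and 145 and 126 in control, a log2 fold change of 1.88 (SE 0.13). Near Pramel3 on chromosome X, Nxf2, a relative of the mRNA export factor NXF1, had 374 and 351 counts against 38 and 25, a log2 fold change of 3.44 (SE 0.19). These 3 neighbours were singled out after their values were seen.

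Markers of other cell types were counted as well, with 33.2% of all tested genes higher and 32.0% lower as the background. Of 10 oocyte markers, 3 were tested, 1 was higher and 2 lower. The 1 that was higher, Nobox, passed the filter only through the Ogt iKO libraries. The list had Oosp1 at 0 counts in every library and a summed level of 46.0 and 56.6 CPM in Ogt iKO against 64.2 and 71.4 CPM in control. Of 10 male germ cell markers, 4 were tested, 1 was higher and 1 lower, and Prm1, Tnp1 and Pgk2 had 0 counts in every library. Their sum, 537 and 508 CPM against 218 and 210 CPM, came almost wholly from Stra8, which had 9013 and 7691 counts in Ogt iKO and 3030 and 2873 in control. Of 8 trophectoderm markers, 7 were tested, 5 were higher and 1 lower, against 33.2% and 32.0% of all tested genes, with summed levels of 376 and 392 CPM in Ogt iKO and 130 and 118 CPM in control, and no marker of the 8 was at 0 in every library. Of the 6 that passed the filter in control as well, 4 were higher and 1 lower. Krt8 and Krt18, keratins of simple epithelia, were 13.1-fold and 12.2-fold higher and gave most of the sum in Ogt iKO. Tfap2c, a transcription factor, fell by 2.28 on the log2 scale, and Cdx2, a defining factor of trophectoderm, had 25 and 23 counts against 17 and 18 and was not called (adjusted p = 0.30). The part of such cells in the families' values was not tested.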

How the data were processed

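RNA was measured in 4 libraries of sorted mouse embryonic stem cells, 2 per group, grouped by the titles in the labels. The authors deposited raw counts per gene symbol for each library, and the submitters' processing notes name STAR, Picard and mm10. The aligner's version, the annotation, the strand counted and the treatment of reads that map to several places are not given in the sources used here. Per the labels, the libraries were made with a stranded mRNA kit.

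Counts were tested with edgeR 4.0.16 in R 4.3.3 (TMM, filterByExpr with a count minimum of 10, quasi-likelihood test, 4 libraries in one fit, no covariate), with Benjamini-Hochberg adjustment over 14525 genes. The threshold for a call was an adjusted p of 0.05. Family sums over all measured members are given as descriptions, without a test, since the members were chosen with results known. An exact test of 2 against 2 libraries could not go below 0.333. Standard errors were derived from the quasi-likelihood F statistic, and count ratios have exact binomial 95% intervals, which cover counting error only. The fitting script was tested on simulated data. Replicates differed by more than sampling noise over the members (chi-square per degree of freedom 3.12 in Ogt iKO and 4.10 in control).

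The members, gene lists and rules were chosen with earlier results of these data known. The naming rule took Ogt, the 4 members of each family with the highest mean CPM and the called members with the largest rise and fall, the 4 genes of each list of 2-cell-like markers, activators and repressors with the smallest adjusted p, and Dux. A gene of the marker list that the rule chose is not reported here. Other members are named only to account for them. Of the marker lists, the genes named are those at 0 in every library and Stra8, Nobox, Pdgfrb, Twist1, Krt8, Krt18, Tfap2c and Cdx2, chosen after their values were seen. Positions, names and promoters are from RefSeq (GRCm38.p6), where 31 of 31 members matched, and exon lengths and transcripts are from GENCODE vM21 of the same assembly. Protein sequences were not used here. Alternatives were RLE factors, library totals, upper quartiles, DESeq2 1.42.0, other filters, a replicate block, stricter calls, other members in the sums, 100 kb in place of 500 kb, and leaving out each library.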

Additional observations from a re-analysis of the deposited data

How the results depend on the processing

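The count of 20 members called higher was 18 with DESeq2, 18 with a filter at 1 CPM, 19 at an adjusted p under 0.01 or at 2-fold, and 18 to 20 when 1 library was left out, and 0 were lower under any of these. The log2 ratios of the family sums (in the order Zscan4, Pramel, Pramef, Tdpoz, Usp17l and Tcstv) were 2.16, 0.07, 2.05, 1.60, 2.21 and 3.15. Without the most abundant member, Pramel turned to -0.24, and the value was 1.12 in Pramef, 2.65 in Tdpoz, 2.66 in Tcstv and 1.69 in place of 2.04 over all members. With genes under other symbols Pramel was 1.80, and with library totals Pramef was 2.22. When 1 library was left out, Pramel ran from -0.10 to 0.22, turning to -0.10 without Ogt iKO replicate 1 and to -0.04 without control replicate 2, Zscan4 ran from 1.86 to 2.53 and Tdpoz from 1.22 to 1.92. Pramel1, at 0.14, ran from -0.054 (without Ogt iKO replicate 1) to 0.28 when 1 library was left out. Within 100 kb, where 6 neighbours were tested, 5 were higher and 0 lower, against 33.2% and 32.0% of all tested genes. The 4 near Tcstv were all higher, but each shares transcript windows with a member and passed the filter only through Ogt iKO. Crct1, near Tdpoz, also passed only through Ogt iKO and was not called. For such genes the filter itself required a difference, so this count cannot be compared with that background. The causes of the other differences were not tested. Scaling by library totals moved the median of all genes from 0.02 to 0.19 on the log2 scale and the genes called from 4827 higher and 4651 lower to 6105 and 3288. DESeq2 called 3469 higher and 4000 lower.

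The labels number the replicates but do not say that a number marks a shared batch, and same-numbered libraries deviated together only weakly (correlation 0.086 across genes, 2 pairs). With the replicate block, 20 members were higher and 0 lower, and the log2 ratios within pairs averaged 2.20 in Zscan4, 0.06 in Pramel, 2.05 in Pramef, 1.59 in Tdpoz, 2.23 in Usp17l, 3.17 in Tcstv and 2.05 over all members. Members with few counts were left out of the test by the filter, and counting error limits their values.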
